A study of Mus musculus with 6 samples.

Results

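The genes examined here are 10 markers of fetal liver and of liver tumors, namely Afp, Gpc3, H19, Igf2, Golm1, Ly6d, Tff3, Igf2bp3, Cd44 and Prom1. They were chosen by symbol, and each of the 10 matched 1 row among the 34745 genes of the expression table, whose coordinates on GRCm38 are given below. RNA-seq had been performed on 6 liver tumors of mice, with 1 library for each tumor. Tumors 7, 66 and 71 came from Prmt3f/f mice, which carry floxed Prmt3 alleles and are labelled WT. Tumors 92, 93 and 94 came from Prmt3LKO mice, in which Cre under the albumin promoter removes Prmt3 from hepatocytes, so that other cells of the tumor keep the gene. All mice of both groups were male, received the liver carcinogen diethylnitrosamine (DEN, 25 mg/kg) when 2 weeks old and then 10% carbon tetrachloride (CCl4) at 0.5 ml/kg from 6 weeks, and were 26 weeks old at sampling. No untreated liver is among the samples, so a level below is that of a tumor and not a change from normal tissue. The labels do not say whether the tumors of a group came from separate animals, and the p-values measure the spread between these tumors.

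Oncofetal genes are active in the fetal liver, are silenced in hepatocytes after birth and can return in liver cancer. Afp encodes alpha-fetoprotein, the main plasma protein of the fetus and a serum marker of hepatocellular carcinoma (HCC). Gpc3 encodes glypican 3, a heparan sulfate proteoglycan of the cell surface that is used to stain HCC. H19 and Igf2 are neighbors in an imprinted cluster that share enhancers. H19 is a noncoding RNA transcribed from the maternal allele, and Igf2 is a fetal growth factor transcribed from the paternal allele. Igf2bp3 encodes an mRNA-binding protein that is found mainly in embryos and tumors. Golm1 encodes the Golgi protein GP73, which is released into serum in liver disease. Ly6d and Tff3 encode a small lipid-anchored surface protein and a trefoil peptide secreted by mucosal epithelia. Cd44, a hyaluronan receptor, and Prom1, a pentaspan membrane glycoprotein also called CD133, are used as markers of tumor-initiating cells. Cd44 is also carried by most leukocytes, and Prom1 also marks biliary epithelium.

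The sequences below show what is transcribed with the most variable gene and what lies in front of the best known marker. H19, at chr7:142575529-142578143 of GRCm38 on the minus strand, holds in an exon the precursor of miR-675, so each transcript of H19 can also be a source of this miRNA. The mature sequences from RefSeq (GRCm38.p6) are given 5′ to 3′ with the seed, bases 2 to 8, in capitals. The arms share no seed. The miRNA itself was not measured.
mmu-miR-675-5p: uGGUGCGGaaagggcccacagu
mmu-miR-675-3p: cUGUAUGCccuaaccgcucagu

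Afp lies downstream of Alb, the albumin gene of the same family and the main product of the adult hepatocyte, on chromosome 5. The promoter of Afp, the best known of these markers, is shown from RefSeq (GRCm38.p6) as 250 bases before and 50 bases after the start site on the plus strand. Capitals mark the TATA box TATAAA.
Afp promoter, chr5:90490464-90490763: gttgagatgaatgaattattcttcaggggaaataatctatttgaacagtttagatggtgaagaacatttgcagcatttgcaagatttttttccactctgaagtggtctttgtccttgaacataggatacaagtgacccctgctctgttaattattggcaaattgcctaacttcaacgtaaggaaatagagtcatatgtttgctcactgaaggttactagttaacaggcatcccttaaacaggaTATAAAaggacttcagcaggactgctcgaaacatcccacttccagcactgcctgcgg

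Searched on both strands, TATAAA began 7 bases before the start site of Afp in the RefSeq entry and 30 bases before the start of Afp in the deposited table, which lies 23 bases downstream. It was held by 13.6% of the 32851 promoters of this length. A promoter entry was matched for 7 of the 10 genes, with 11 entries in all. TATAAA was found in 2 of the 7, Afp and Golm1. Here a gene with several entries counts once, while the shares over all promoters count each entry. TGTTTAC, a core of the FOXA site, was found in 0 of the 7 and in 3.65% of all promoters. Only these exact letters were searched, so other forms of the site may be present. In Golm1 the match began at position -185 from the start site of its RefSeq entry. A match does not show that a site is used.

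The total count per tumor was between 18440244 and 27976598 reads. Levels are given as CPM, the count of a gene relative to the TMM-scaled library size, which allows a gene to be compared between tumors. With 3 counts as the limit of detection, a count of 0 in a tumor allows at most 0.107 to 0.163 CPM. This covers counting error only. None of the 60 values of the 10 genes was at or under this limit, the lowest being 5 counts, for Igf2 in tumor 92. Prmt3, the deleted gene, was at 6.60, 8.49 and 10.2 CPM in tumors 7, 66 and 71 and at 2.80, 2.03 and 3.82 CPM in tumors 92, 93 and 94. The genotypes did not overlap (log2 fold change -1.55, standard error 0.29, adjusted p = 0.592 by quasi-likelihood in edgeR, Benjamini-Hochberg over all genes tested). The tissue label was checked on 8 hepatocyte markers, which were all detected and together made up 138100 to 200360 CPM in Prmt3f/f and 155120 to 166200 CPM in Prmt3LKO tumors. Alb alone, at 108200 to 164720 CPM over all tumors, held most of each sum. The sums thus say little of the levels of the other markers.

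All 10 genes were detected in every tumor and passed the filter on low counts, at levels that ranged widely. Between genes, levels are compared as the deposited FPKM, whose gene lengths are not given in the sources used here. For H19 in tumor 7, 4358 counts and an FPKM of 36.4 imply a length above its span of 2615 bases. The order below is therefore that of the deposited values, and H19 may be placed too low. The places of the other genes, and the share of Afp relative to Alb, rest on lengths that are not given either. They may be too low or too high as well. By the median FPKM over the 6 tumors, Ly6d was the highest at 395.2, followed by Tff3 at 124.0, Gpc3 at 51.0, Afp at 18.7 and Golm1 at 17.5. Prom1 followed at 2.83, Cd44 at 1.85, H19 at 1.82, Igf2bp3 at 0.146 and Igf2 at 0.0723. The range over tumors overlapped between every pair of neighbors in this order except Golm1 and Prom1, where Golm1 was higher in 6 of 6 tumors. Afp was above its neighbor Golm1 in 2 of 6 tumors, so the order of this pair changed from tumor to tumor. The FPKM of Afp was between 0.0208% and 0.0999% of that of Alb.

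**Figure D1:**
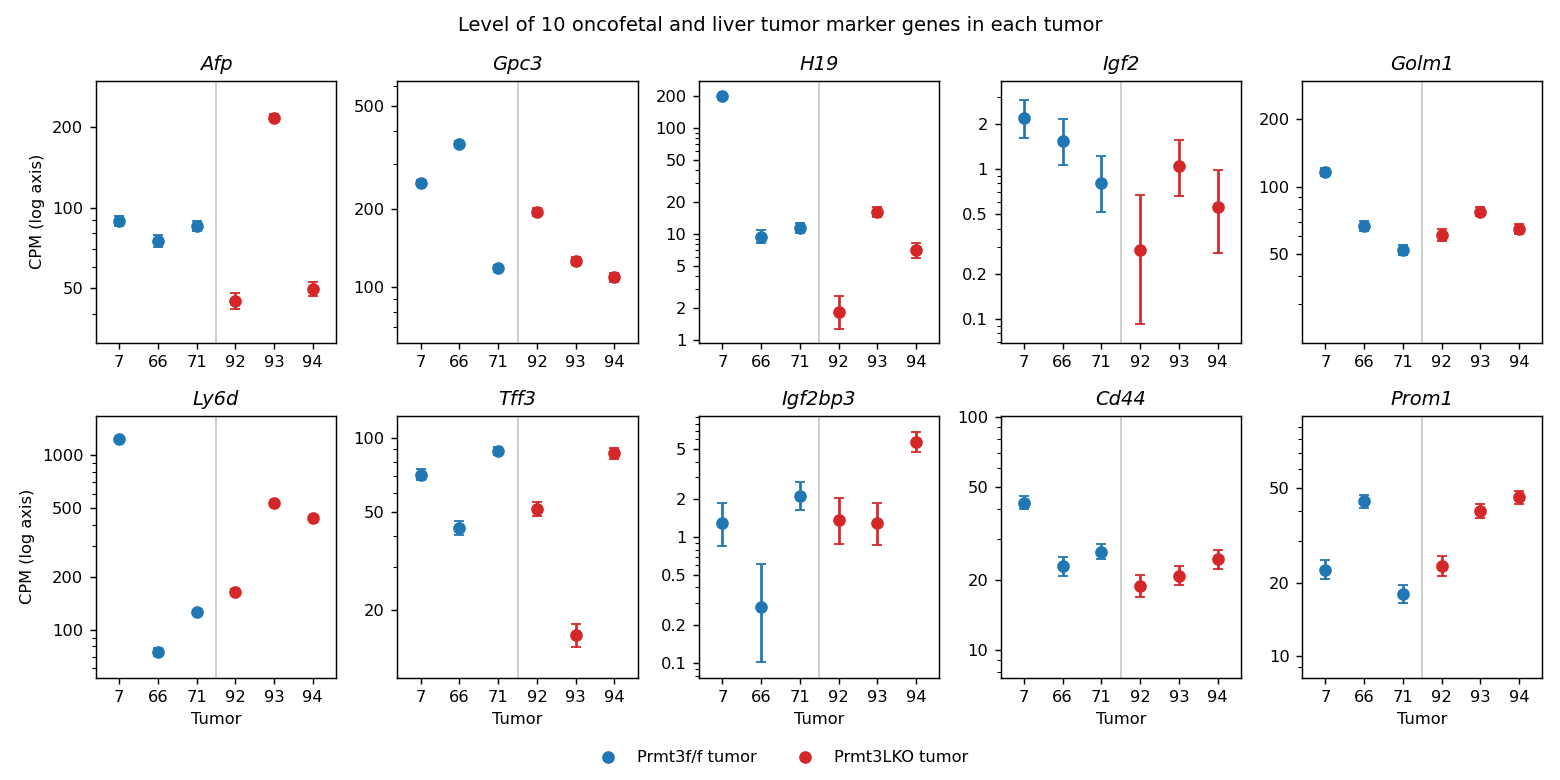
Level of each of the 10 genes in CPM (log axis, a separate scale for each gene) in the Prmt3f/f tumors 7, 66 and 71 (blue) and the Prmt3LKO tumors 92, 93 and 94 (red), with exact Poisson 95% intervals of the count as bars. Most intervals are far smaller than the distances between tumors of the same color, as for H19, at 201.2 CPM in tumor 7 and 9.38 CPM in tumor 66, and the colors overlap for every gene.

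The comparison of Prmt3LKO with Prmt3f/f tumors asks whether deletion of Prmt3 in hepatocytes changes these markers. None of the 10 genes was called at an adjusted p under 0.05 and a fold change of at least 2 (0% of all 13892 genes tested were called). Prmt3, the deleted gene, was not called in this fit either (adjusted p = 0.592, edgeR's quasi-likelihood test). A count of 0 therefore does not show that the markers were unchanged. By sign, 7 were lower and 3 higher in Prmt3LKO tumors, and the median log2 fold change was -0.37 against 0.00037 over all genes tested. At an unadjusted p under 0.05, 1 of the 10 was counted, H19, where 6.56% of all genes were counted. The genotypes overlapped for all 10 genes. Of all genes tested, 6.6% were lower in every Prmt3LKO tumor than in every Prmt3f/f tumor and 5.56% were higher in every one. DESeq2, the exact test of edgeR, limma-voom and each of the other settings also called 0 of the 10. DESeq2 gave H19 no adjusted p, so H19 could not be called there. In contrast, differences between tumors of the same genotype were large, and each gene is described from this side below.

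Afp (ENSMUSG00000054932, chr5:90490737-90508907, plus strand) was nearly the same in the 3 Prmt3f/f tumors and differed most among the Prmt3LKO tumors. It was counted at 88.9, 74.9 and 85.3 CPM in tumors 7, 66 and 71 and at 44.8, 216.6 and 49.7 CPM in tumors 92, 93 and 94. Tumor 93 stood alone at the top, 2.44-fold above the next, while the other 2 Prmt3LKO tumors lay below all Prmt3f/f tumors. The highest and the lowest tumor differed 4.83-fold among Prmt3LKO and 1.19-fold among Prmt3f/f tumors, with an SD of log2 CPM of 1.27 against 0.13. The means were 83.0 ± 7.29 CPM (SD, n = 3) in Prmt3f/f and 103.7 ± 97.8 CPM (SD, n = 3) in Prmt3LKO tumors. Between genotypes the log2 fold change was 0.32 (standard error 0.57, adjusted p = 0.970, edgeR's quasi-likelihood test), and it turned to -0.81 without tumor 93.

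Factors known to act on Afp were compared with it tumor by tumor. Zhx2 and Zbtb20 encode repressors that take part in silencing Afp after birth. Zhx2 lay between 16.0 and 25.1 CPM in all 6 tumors, with log2 fold change -0.16 (standard error 0.19, adjusted p = 0.953, edgeR). Zbtb20 was high in 3 tumors and low in 3, with 39.8, 38.6 and 6.47 CPM in tumors 7, 66 and 71 and 33.1, 2.35 and 2.66 CPM in tumors 92, 93 and 94. Both low and high tumors were thus found in each genotype, and its SD within genotype of 1.84 was exceeded by 55 of the 13892 genes tested. Tumor 93, with the most Afp, and tumor 94, with nearly the least, had about the same low level of Zbtb20. Of the 15 factors of the list, which also holds FOXA and C/EBP genes, 12 were lower and 3 higher by sign, with a median log2 fold change of -0.088, and 0 were called. The log2 fold change was 0.42 for Cebpa, -0.42 for Trp53 and -0.34 for Foxa2, none past an adjusted p of 0.05 in edgeR.

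Gpc3 (ENSMUSG00000055653, chrX:52272426-52613950, minus strand) was at 109.0 CPM or more in all tumors. Its level was 252.1, 358.2 and 118.1 CPM in tumors 7, 66 and 71 and 195.5, 126.1 and 109.0 CPM in tumors 92, 93 and 94. The highest values were those of Prmt3f/f tumors 66 and 7, but tumor 71 lay among the Prmt3LKO tumors. The means were 242.8 ± 120.3 CPM (SD, n = 3) and 143.5 ± 45.8 CPM (SD, n = 3), with log2 fold change -0.76 (standard error 0.40, adjusted p = 0.809, edgeR's quasi-likelihood test; exact two-sided permutation test, p = 0.3). It was -0.37 without tumor 66 and -1.09 without tumor 71. Its relatives Gpc1, Gpc4 and Gpc6 passed the filter, and 0 of them were called.

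H19 (ENSMUSG00000000031, chr7:142575529-142578143, minus strand) differed more between tumors than nearly any other gene. It was at 201.2, 9.38 and 11.4 CPM in tumors 7, 66 and 71 and at 1.83, 16.0 and 6.99 CPM in tumors 92, 93 and 94. Tumor 7 was 12.6-fold above tumor 93, the next highest, and 110-fold above tumor 92, the lowest, while the other 4 tumors lay between 6.99 and 16.0 CPM. The counts were 4358 in tumor 7 and 32 in tumor 92, so the difference is far above counting error. Within genotype the SD of log2 CPM was 2.06, which 28 of the 13892 genes tested exceeded. The log2 fold change was -3.15 (standard error 1.295, unadjusted p = 0.0427, adjusted p = 0.743, edgeR's quasi-likelihood test). The means were 74.0 ± 110.2 CPM (SD, n = 3) and 8.28 ± 7.18 CPM (SD, n = 3). Without tumor 7 the log2 fold change was -0.33. An exact permutation test (two-sided) over all 6 tumors gave p = 0.4, where 0.1 is the smallest possible.

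Igf2 (ENSMUSG00000048583, chr7:142650766-142666816, minus strand), the partner of H19, was low in all tumors and close to the limit of detection in tumor 92. It was counted 47, 33 and 23 times in tumors 7, 66 and 71 and 5, 23 and 11 times in tumors 92, 93 and 94, or 2.17, 1.54, 0.809, 0.286, 1.04 and 0.553 CPM in the same order. As for H19, tumor 7 was highest and tumor 92 lowest, but the range was 7.59-fold, not 110-fold. The ratio of H19 to Igf2 in FPKM was 214.4 in tumor 7 and between 14.1 and 35.7 in the other 5 tumors. As the lengths behind the FPKM are not given, this ratio compares tumors and not the levels of H19 and Igf2. The log2 fold change of Igf2 was -1.23 (standard error 0.57, adjusted p = 0.774, edgeR's quasi-likelihood test), and tumor 93 lay above tumor 71. The correlation of log2 CPM of H19 and Igf2 over the 6 tumors was r = 0.86 (exact permutation p = 0.0222, adjusted p = 0.167 over 8 pairs of genes) with rho = 0.83 (exact permutation p = 0.0583). Without the 2 tumors farthest from the median of H19, tumors 7 and 92, r was 0.41, so the relation rests on these tumors. With the genotype means removed, r was 0.80.

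The other genes of the IGF system had a median SD within genotype of 0.442, against 2.06 for H19 and 0.735 for Igf2. Igf2r, the receptor that clears IGF2, lay between 79.7 and 108.5 CPM in all tumors with a log2 fold change of 0.053. Of the 15 tested genes of this system outside the 10 markers, 9 were lower and 6 higher by sign, with a median of -0.076, and 0 had an unadjusted p under 0.05. The smallest p belonged to the receptor adaptors Irs2, at a log2 fold change of -0.61, and Irs1, at 0.46, and to the binding proteins Igfbp5, at -1.19, and Igfbp3, at -0.87. Igfbp3 was at 78.8 CPM in tumor 7 and between 19.1 and 31.0 CPM in the other tumors. Among 16 tested imprinted genes of other loci or of the same cluster, 7 were lower and 9 higher, with a median of 0.043. Peg3, a paternally expressed zinc finger gene, was at 3.28, 7.74 and 4.50 CPM in tumors 7, 66 and 71 and at 0.572, 0.947 and 1.71 CPM in tumors 92, 93 and 94. Its log2 fold change was -2.25 (standard error 0.48, adjusted p = 0.592, edgeR's quasi-likelihood test), and the genotypes did not overlap. Peg3 was past the limits with DESeq2 and with the exact test of edgeR, and it was the 1 gene of the 5 gene lists beside the cell type markers to be called in any setting. The next imprinted genes by p were Mest, at a log2 fold change of 0.40, Phlda2 at 0.47 and Impact at -0.22.

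Igf2bp3 (ENSMUSG00000029814, chr6:49085223-49214957, minus strand) was also low, with 28, 6 and 61 counts in tumors 7, 66 and 71 and 24, 29 and 114 counts in tumors 92, 93 and 94. Only tumor 66 was near the limit of detection. The counts of Igf2bp3 correspond to 1.29, 0.280, 2.14, 1.37, 1.31 and 5.73 CPM in the same order of tumors, a range of 20.5-fold. Tumor 94 was highest and tumor 66 lowest, and the other 4 tumors were within 0.64 of the median on the log2 scale. With all tumors the log2 fold change was 1.16 (standard error 0.80, adjusted p = 0.892, edgeR's quasi-likelihood test) and 0.099 without tumor 94. Igf2bp3 shares 1529 bases with Malsu1 on the other strand, which had 1697 counts over the 6 tumors, and the use of strand in counting is not given in the sources used here. Of its relatives, Igf2bp2 was at 2.03, 0.513 and 0.949 CPM in tumors 7, 66 and 71 and at 1.09, 3.52 and 2.41 CPM in tumors 92, 93 and 94, with log2 fold change 1.01 (standard error 0.60, adjusted p = 0.843, edgeR). Tumor 66 was the lowest for both genes. Igf2bp1 did not pass the filter, with means of 0.183 and 0.0549 CPM.

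Golm1 (ENSMUSG00000021556, chr13:59634996-59675784, minus strand) was the most even of the serum markers. It was at 116.3, 66.7 and 52.1 CPM in tumors 7, 66 and 71 and at 61.0, 77.5 and 64.8 CPM in tumors 92, 93 and 94. Tumor 7 was again the highest, and the other tumors were within 1.49-fold of each other. The log2 fold change was -0.21 (standard error 0.29, adjusted p = 0.962, edgeR's quasi-likelihood test), and 0.18 without tumor 7.

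**Figure D2:**
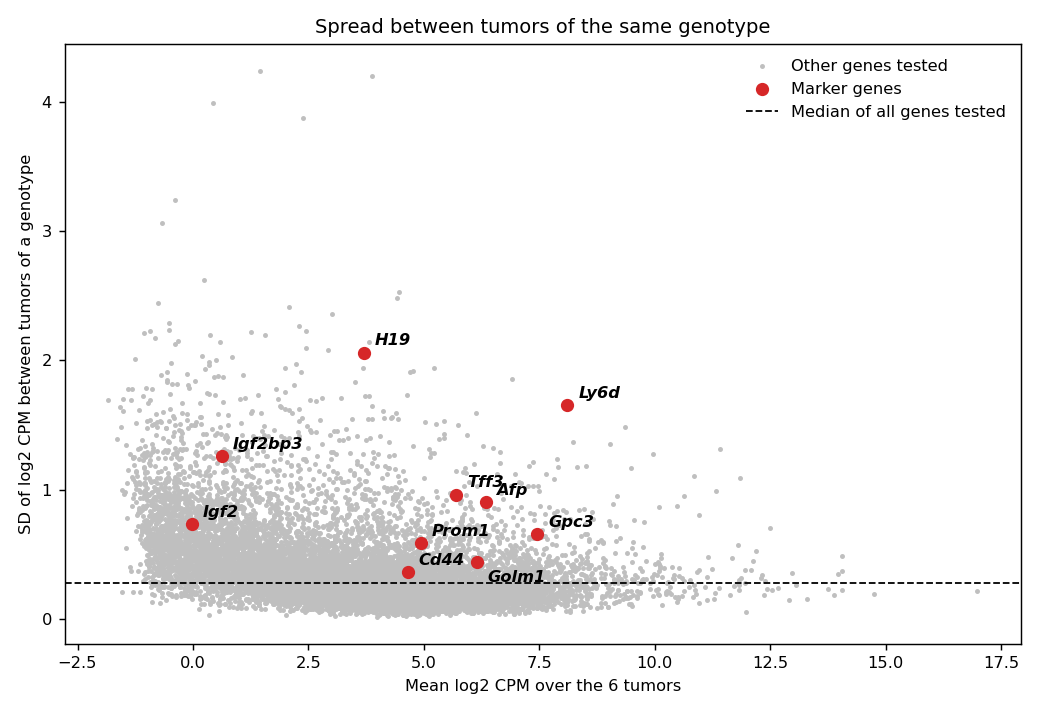
SD of log2 CPM between tumors of the same genotype (pooled over both genotypes) against the mean log2 CPM over the 6 tumors, for the 13892 genes tested (gray) and the 10 marker genes (red, named). The dashed line is the median of all genes tested, 0.277. All 10 genes lie above it, and H19 at 2.06 and Ly6d at 1.66 stand out among genes of similar level.

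Ly6d (ENSMUSG00000034634, chr15:74762056-74763620, minus strand) was the most abundant of the 10 genes by FPKM in all tumors except 66 and 71, and its SD within genotype of 1.66 was exceeded by that of H19 alone among the 10. It was at 1243 CPM in tumor 7, at 74.3 and 125.8 CPM in tumors 66 and 71, and at 164.1, 528.6 and 438.3 CPM in tumors 92, 93 and 94. Tumor 7 was 16.7-fold above tumor 66, so the highest and the lowest tumor were of the same genotype. In tumor 7 Ly6d alone took 0.128% of all counts and took rank 33 among all genes by FPKM, against rank 332 in tumor 66. The 3 Prmt3LKO tumors all lay above the other 2 Prmt3f/f tumors. The log2 fold change was -0.35 with all tumors (standard error 0.99, adjusted p = 0.988, edgeR's quasi-likelihood test) and 1.90 without tumor 7. It was 0.54 with limma-voom and also 0.54 on log2(FPKM + 1), with adjusted p of 0.977 and 0.994. Of its relatives, Ly6e, a gene of many tissues, was at 271.1 to 486.7 CPM in all tumors.

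Tff3 (ENSMUSG00000024029, chr17:31125306-31129646, minus strand) was abundant in 5 tumors and lower in the sixth. It was at 71.1, 43.2 and 88.6 CPM in tumors 7, 66 and 71 and at 51.7, 15.8 and 86.7 CPM in tumors 92, 93 and 94. Tumor 93, which had the most Afp, had the least Tff3, and the highest tumors of each genotype, 71 and 94, differed 1.02-fold. Between genotypes the log2 fold change was -0.40 (standard error 0.54, adjusted p = 0.961, edgeR's quasi-likelihood test) and 0.034 without tumor 93. Its correlation with Epcam, an epithelial gene of bile ducts and progenitor cells, was r = 0.26 (exact permutation p = 0.611) with rho = 0.086 (exact permutation p = 0.919), and r was 0.87 without tumors 71 and 93. The relatives Tff1 and Tff2 did not pass the filter.

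Cd44 (ENSMUSG00000005087, chr2:102811141-102901665, minus strand) had the smallest SD within genotype of the 10 genes, 0.361, against a median of 0.277 over all genes tested. It was at 42.7, 22.8 and 26.3 CPM in tumors 7, 66 and 71 and at 18.7, 20.8 and 24.4 CPM in tumors 92, 93 and 94. Tumor 7 stood above the rest, which lay within 1.40-fold of each other, and tumor 94 lay above tumor 66. The means were 30.6 ± 10.6 CPM (SD, n = 3) and 21.3 ± 2.88 CPM (SD, n = 3), with log2 fold change -0.52 (standard error 0.25, adjusted p = 0.775, edgeR's quasi-likelihood test) and -0.21 without tumor 7. In bulk tumors, fewer cells of a type and less RNA per cell cannot be told apart. This bears on Cd44 because leukocytes carry it. The 10 leukocyte markers were all lower by sign in Prmt3LKO tumors, 7 of them at an unadjusted p under 0.05 (6.56% of all genes tested) and 0 called. Their summed level was 384.7 to 962.8 CPM in Prmt3f/f and 271.3 to 376.7 CPM in Prmt3LKO tumors, and without Lyz2, which holds most of it in tumors 7 and 66, it was 224.6 to 287.9 and 153.0 to 214.2 CPM. Ptprc, which encodes the leukocyte antigen CD45, was at 41.0, 39.6 and 39.7 CPM in tumors 7, 66 and 71 and at 19.1, 23.7 and 25.7 CPM in tumors 92, 93 and 94. The correlation of Cd44 with Ptprc was r = 0.70 (exact permutation p = 0.0417, adjusted p = 0.167 over 8 pairs), with rho = 0.94 (exact permutation p = 0.0167, adjusted p = 0.0667). It was 0.55 without tumors 7 and 92 and 0.46 with the genotype means removed. The part of leukocytes in the level of Cd44 was not tested.

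Prom1 (ENSMUSG00000029086, chr5:43993620-44102032, minus strand) showed no separation of the genotypes either. It was at 22.9, 43.9 and 18.1 CPM in tumors 7, 66 and 71 and at 23.7, 40.1 and 45.6 CPM in tumors 92, 93 and 94. High and low tumors occurred in both genotypes, with log2 fold change 0.37 (standard error 0.37, adjusted p = 0.943, edgeR's quasi-likelihood test). Epcam was at 4.57, 2.99 and 0.914 CPM in tumors 7, 66 and 71 and at 2.17, 1.67 and 6.38 CPM in tumors 92, 93 and 94. The correlation of Prom1 with Epcam was r = 0.51 (exact permutation p = 0.292) with rho = 0.60 (exact permutation p = 0.242), and -0.43 without tumors 71 and 94. Of 8 cholangiocyte markers, 6 were tested, of which 5 were lower by sign. Their sum was 345.8 to 4118 CPM in Prmt3f/f and 219.5 to 368.2 CPM in Prmt3LKO tumors, and 36.2 to 58.6 against 27.3 to 34.9 CPM without Spp1, which held most of it. Prom1 is also a gene of kidney tubules, and kidney transcripts occurred in these libraries at trace level. The 3 tested of 8 kidney markers, Kap, Umod and Slc34a1, were higher in every Prmt3LKO tumor, as were 5.56% of all genes tested. Umod and Slc34a1, with at most 8 counts in any Prmt3f/f tumor, passed the filter only through the Prmt3LKO tumors. Their direction was thus tied to their being tested. All 8 markers summed to 2.95 to 4.20 CPM in Prmt3f/f and 8.70 to 12.3 CPM in Prmt3LKO tumors. The part of these cells in the level of Prom1 was not tested.

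**Figure D3:**
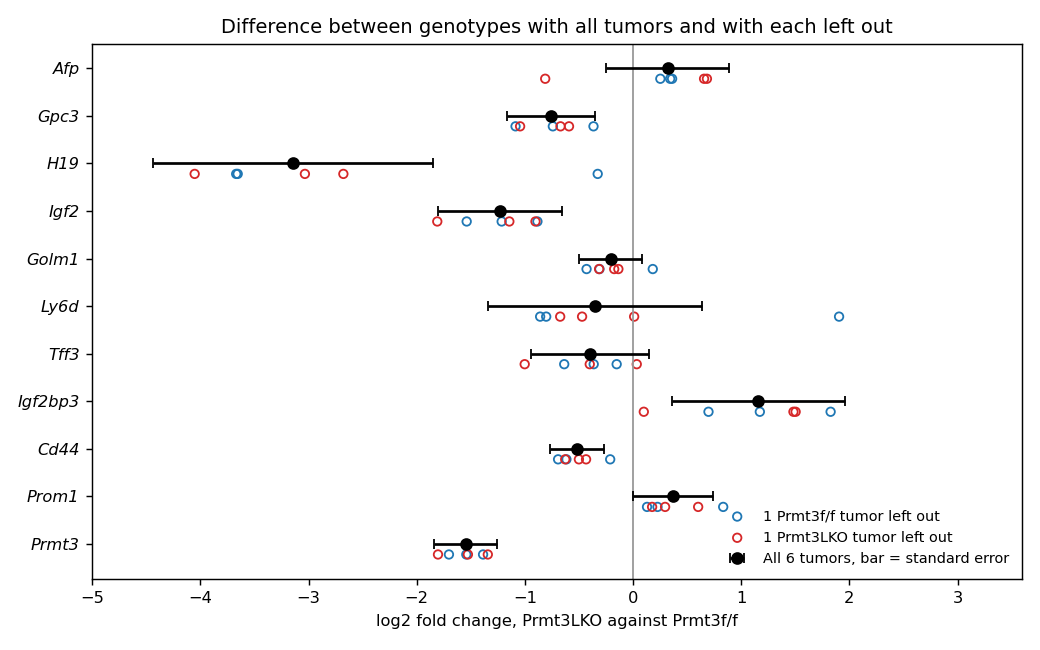
log2 fold change of Prmt3LKO against Prmt3f/f tumors for the 10 marker genes and for Prmt3, with all 6 tumors (black points, bars show the standard error) and with 1 tumor left out (open circles, blue where a Prmt3f/f and red where a Prmt3LKO tumor was left out). A single tumor moves H19 from -3.15 to -0.33 and Ly6d from -0.35 to 1.90 (both without tumor 7), and Afp from 0.32 to -0.81 (without tumor 93), while Prmt3 stays between -1.80 and -1.34.

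The spread between tumors of a genotype was above the median gene for all 10. Their median SD of log2 CPM within genotype was 0.819, against 0.277 over all genes tested. The same median was 0.677 over the 27 other tumor-associated genes and 0.622 over the 16 other imprinted genes. It was 0.629 over the 8 stellate cell and fibroblast markers and 0.604 over the 6 cholangiocyte markers. Over the hepatocyte, leukocyte, endothelial, cycling and kidney markers it was 0.240 to 0.447. Of the 10 genes, 6, H19, Ly6d, Igf2bp3, Tff3, Afp and Igf2, were above the 90th percentile. The same 6 differed at least 4-fold between the highest and the lowest tumor, which 11.3% of all genes tested did. The other 4, Gpc3, Golm1, Cd44 and Prom1, differed 2.23-fold to 3.29-fold. The percentile is over genes of all levels and is not matched to level. For Igf2 (5 to 47 counts) and Igf2bp3 (6 to 114 counts), counting error adds to the SD. Igf2 was just past the line, with 90.3% of genes at a smaller SD, and its fold was 3.92 without tumor 92. The spread was not a property of 1 genotype. The SD was larger among Prmt3f/f tumors in 7 of the 10 genes, as in 56.2% of all genes tested, and Afp, Tff3 and Igf2 were the 3 genes with the larger SD among Prmt3LKO tumors. Between 50.0% (Igf2) and 99.7% (Afp) of the sum of squares of log2 CPM lay within genotypes, with a median of 80.5% against 86.7% over all genes tested. The markers were chosen as genes known to differ between tumors, and these counts are a description.

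Tumor 7, from a Prmt3f/f mouse, was the highest tumor for 5 of the 10 genes, H19, Igf2, Golm1, Ly6d and Cd44, and the lowest for 0 of the 10. Of all genes tested, it was the highest for 23.7% and the lowest for 23.6%, more than any other tumor at both ends. Tumor 92 was the lowest for 4 of the 10, Afp, H19, Igf2 and Cd44, against 14.8% of all genes. The other tumors had their own single markers, with Afp highest in tumor 93, Gpc3 in tumor 66, Tff3 in tumor 71, and Igf2bp3 and Prom1 in tumor 94. Afp and H19 were ranked alike by most tumors, with rho = 0.94 (exact permutation p = 0.0167, adjusted p = 0.0667 over 8 pairs), but r was 0.45 (exact permutation p = 0.336). Afp was not correlated past the threshold with Gpc3 (r = -0.15, exact permutation p = 0.844; rho = 0.086, exact permutation p = 0.919), with Zhx2 (r = -0.13, exact permutation p = 0.858; rho = -0.20, exact permutation p = 0.714) or with Ly6d (r = 0.31, exact permutation p = 0.553; rho = 0.49, exact permutation p = 0.356). Of the 8 pairs, 0 passed an adjusted p of 0.05 by either coefficient, the smallest adjusted p by exact permutation being 0.167 for r and 0.0667 for rho. Without the 2 tumors farthest from the median of the gene on the x axis, r was 0.60 for Afp with H19, 0.46 with Gpc3, 0.31 with Zhx2 and 0.44 for Ly6d with Afp.

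**Figure D4:**
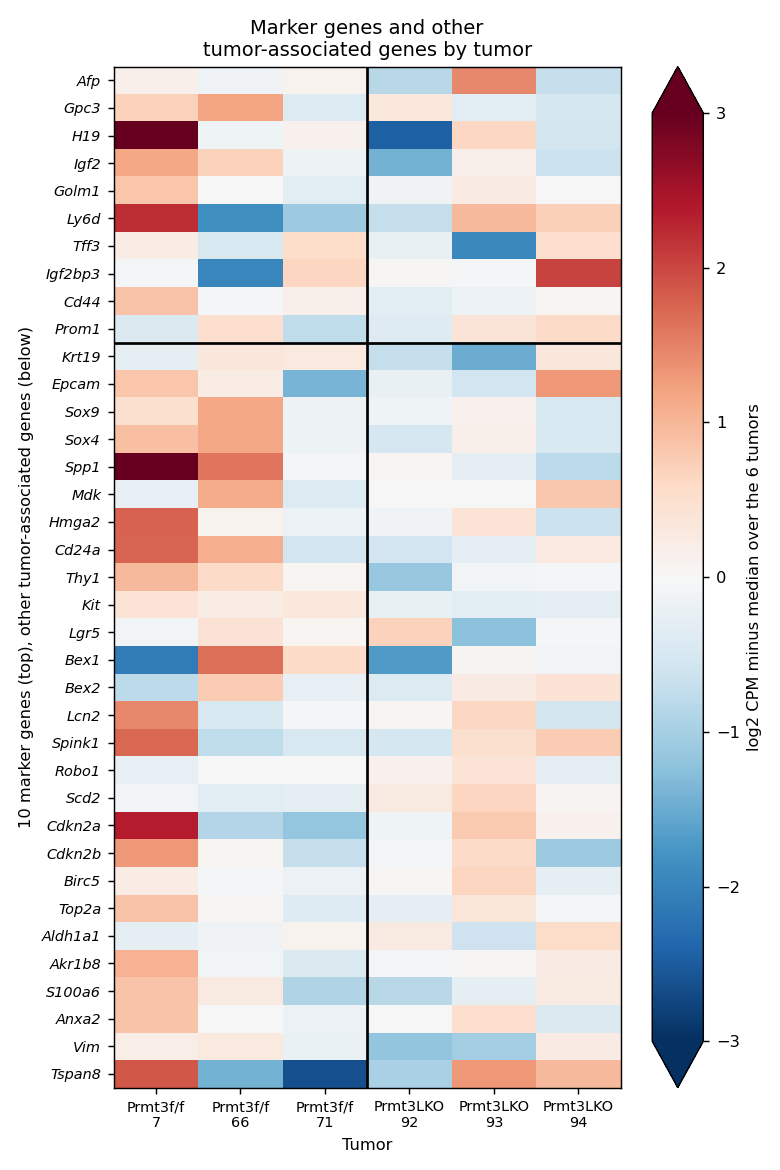
log2 CPM minus the median over the 6 tumors (color, red above and blue below the median, limited to 3 in both directions) for the 10 marker genes above the line and 27 other tumor-associated liver genes below it, in the 3 Prmt3f/f and the 3 Prmt3LKO tumors. Tumor 7 is the highest for 5 of the 10 and 14 of the 27 genes, and each of the other tumors is the highest for 0 to 6 of the 27.

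Tumor 7 also stood apart in other genes. Of 30 other fetal, progenitor and tumor-associated genes, 27 were tested, and 14 of these 27 were highest in tumor 7. It was also the highest for 4 of 6 genes of dividing cells, 2 of which (Top2a and Birc5) are in both lists. It was the lowest for 6 of 6 endothelial markers, where it was the lowest for 23.6% of all genes tested. The endothelial markers summed to 192.4 CPM in tumor 7 and to 239.5 to 294.9 CPM in the other tumors. The part of these cells in the levels of the 10 genes was not tested. Lin28b and Sall4, fetal genes that return in a share of human HCC, had at most 2 counts in any tumor and did not pass the filter. Gpx2 did not pass it either, but was counted 57 times in tumor 7 and 4 to 22 times in the other tumors. Against genotype, 19 of the 27 were lower and 8 higher in Prmt3LKO tumors by sign, the median being -0.43 on the log2 scale, and 0 were called. At an unadjusted p under 0.05, 4 were lower and 1 was higher, where 6.56% of all genes tested were counted in either direction. The genotypes did not overlap for 3 of the 27, with Kit and Thy1, a gene of T cells and fibroblasts, lower and Scd2 higher in every Prmt3LKO tumor. This is near the share over all genes tested, of which 6.6% were lower and 5.56% higher in every Prmt3LKO tumor. Spp1, the gene of osteopontin, was at 4075, 978.1 and 309.7 CPM in tumors 7, 66 and 71 and at 338.9, 265.0 and 184.6 CPM in tumors 92, 93 and 94. Its log2 fold change was -2.77 (standard error 0.84, adjusted p = 0.620, edgeR's quasi-likelihood test). Tumor 7 stood far above the rest in it, as it did in H19. In Ly6d tumor 7 was also the highest, but 2.35-fold above tumor 93, the next. Kit, a receptor of progenitor and mast cells, was at 9.47 to 10.7 CPM in Prmt3f/f and 6.32 to 6.86 CPM in Prmt3LKO tumors, with a log2 fold change of -0.62 (adjusted p = 0.592, edgeR). Sox4, a factor of progenitor cells, had a log2 fold change of -0.98 and Scd2, a fatty acid desaturase of the fetal liver, of 0.59. Of 12 tested relatives of the markers by protein family, 5 were lower and 7 higher by sign with a median of 0.041, and 0 had an unadjusted p under 0.05. The smallest p in that group belonged to Casc4, a homolog of Golm1, at a log2 fold change of 0.40.

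Genes whose levels over the 6 tumors were most like those of each marker were sought among 12073 genes at a mean of at least 1 CPM, and the 3 with the largest Pearson r are given as a description. For Afp they were Mageh1 (r = 0.99), Chpf2 and Tbrg1, for Gpc3 Necap2 (r = 0.99), Plvap and Megf6, and for H19 Cd82 (r = 0.99), Was and Rhebl1. For Igf2 they were Bhlhe41 (r = 0.99), Ssr2 and Kdelc1, for Igf2bp3 Rab17 (r = 0.999), Rnaseh1 and Ppm1a, and for Golm1 Cenpe (r = 0.99), Tbc1d19 and Nutf2. For Ly6d they were Alkbh1 (r = 0.99), Zfp958 and Rps27l, for Tff3 Bmp2 (r = 0.98), S1pr5 and Zfp219, for Cd44 Calu (r = 0.996), Scoc and Batf, and for Prom1 Ank (r = 0.98), Lama4 and Cbll1. No marker was among the nearest genes of another. With 6 tumors many genes reach such values, and between 4 (Prom1) and 86 (Ly6d) genes had an r of 0.95 or more.

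**Figure D5:**
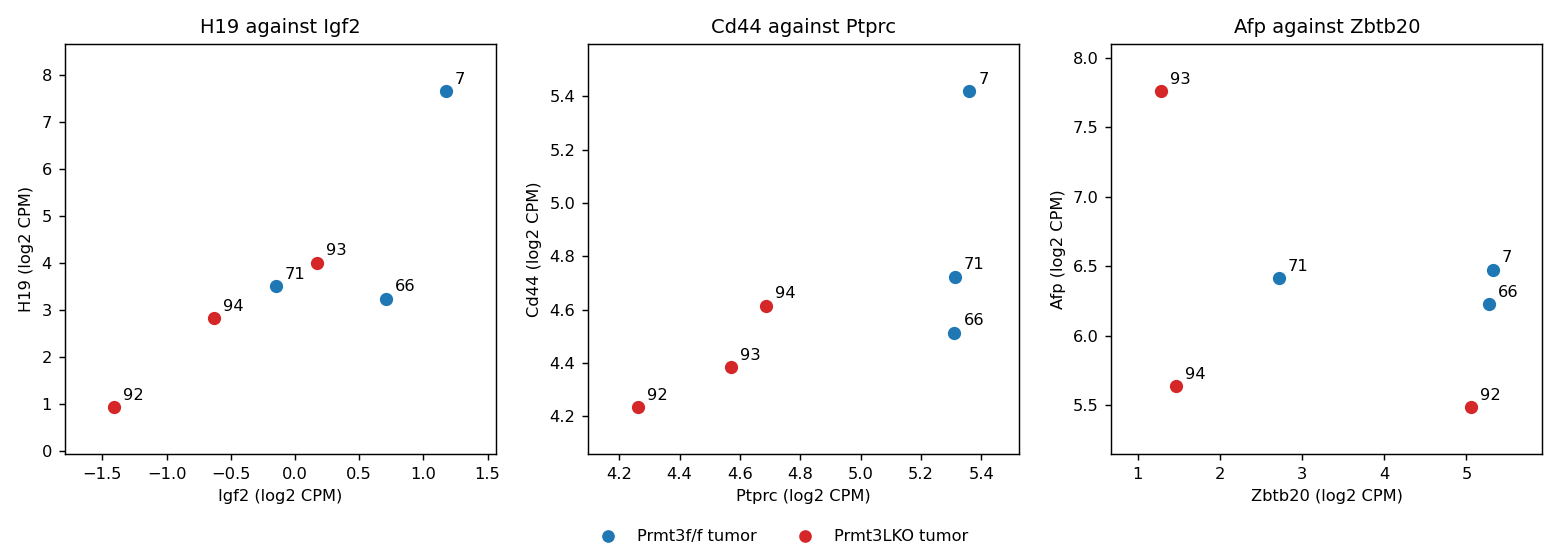
Levels in log2 CPM of H19 against Igf2 (left), Cd44 against Ptprc (middle) and Afp against Zbtb20 (right) in the 3 Prmt3f/f (blue) and 3 Prmt3LKO (red) tumors, each point being 1 tumor with its number. H19 and Igf2 are both highest in tumor 7 and lowest in tumor 92, Cd44 is highest in tumor 7 while Ptprc is nearly equal in the 3 Prmt3f/f tumors, and tumors 93 and 94 differ in Afp (216.6 and 49.7 CPM) at about the same Zbtb20 (2.35 and 2.66 CPM).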

How the data were processed

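RNA was sequenced from 3 Prmt3f/f and 3 Prmt3LKO liver tumors, grouped by the genotype in the labels. Per the labels, mRNA was separated from total RNA and sequencing libraries were built from it. The authors mapped the reads, in pairs, to GRCm38 by HISAT2 2.0.4, and the submitters' processing notes also name bcl2fastq 2.19 and StringTie 1.3.0. The deposited table holds for each gene and tumor a whole-number count, not normalized, and an FPKM, and all 12 columns belong to these tumors (0 columns unused). The authors' FPKM divide the count by total count and by a gene length that is not given. The counting tool, the annotation and the use of strand are not given in the sources used here. Reads of overlapping genes can therefore not be told apart.

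Here, genes were kept by filterByExpr (minimum count 10, minimum total 15), counts were scaled by TMM, and genotype was tested by quasi-likelihood in edgeR 4.0.16 (R 4.3.3), with Benjamini-Hochberg adjustment over 13892 genes. Called means an adjusted p under 0.05 with a fold of 2 or more, or 0.5 or less. Single genes and 8 pairs were tested by exact two-sided permutation, with log2 CPM at a prior count of 2. The tests were tried on simulated data. Alternatives were DESeq2 1.42.0, library size without TMM, genes with at least 1 count, genes with a mean of 1 CPM or more, the edgeR exact test, limma-voom (limma 3.58.1), log2(FPKM + 1), and leaving out each tumor.

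The 10 genes, the gene lists and the tests were chosen with earlier results of these data known. Named genes are the 10 markers, Prmt3, Zhx2, Zbtb20, Igf2r, Igf2bp1, Igf2bp2 and Alb, up to 4 genes of each list with the smallest p, and the 3 genes most correlated with each marker (predicted genes passed over). For 1 gene that this rule names, the result is not reported here. Lyz2, Malsu1, Thy1, Top2a and Birc5, and genes named because they did or did not pass the filter, were chosen after their values were seen. Epcam and Ptprc belong to the 8 pairs. Lists of 8 stellate, 6 endothelial and 6 cycling markers had 0 genes called, with sums of 370.1 to 923.0 against 402.3 to 666.8 CPM, 192.4 to 294.9 against 239.5 to 267.7 CPM, and 35.1 to 69.5 against 38.0 to 56.8 CPM in Prmt3f/f against Prmt3LKO tumors. Promoters and miRNAs are from RefSeq (GRCm38.p6), and gene coordinates from the deposited table.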

Additional observations from a re-analysis of the deposited data

How the results depend on the processing

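The number of the 10 marker genes called was 0 under all 12 alternatives. Over all genes, DESeq2 called 43 lower and 9 higher, the exact test of edgeR 35 lower and 5 higher, and the fit on genes with at least 1 count 2 lower, against 0 and 0 with each of the other alternatives, the 6 fits that left out a tumor included. Of the 5 gene lists, 1 gene (Peg3) was called with DESeq2 and 1 (Peg3) with the exact test. The log2 fold change of Prmt3 was -1.55 under DESeq2 and -1.55 under the exact test, both past an adjusted p of 0.05. Signs of the fold change turned for Afp to -0.097 with limma-voom, -0.079 on log2(FPKM + 1) and -0.81 without Prmt3LKO tumor 93, for Golm1 to 0.18 without Prmt3f/f tumor 7, for Ly6d to 0.54 with limma-voom, 0.54 on log2(FPKM + 1), 1.90 without Prmt3f/f tumor 7 and 0.0099 without Prmt3LKO tumor 92, and for Tff3 to 0.034 without Prmt3LKO tumor 93. The r of Afp with Zhx2 turned to 0.042 with library size without TMM and 0.038 on log2(FPKM + 1). The cause was not tested. Leaving out each tumor in turn, the log2 fold change ranged from -0.81 to 0.68 for Afp, from -0.43 to 0.18 for Golm1, from -0.86 to 1.90 for Ly6d and from -1.002 to 0.034 for Tff3. In the other 121 of 130 alternatives the markers' fold changes kept their sign, and none was past an adjusted p of 0.05. Between 4 and 6 markers differed at least 4-fold between tumors with each tumor left out. DESeq2 gave no adjusted p for H19, which is counted among the 121 but could not pass there. No paired analysis was possible because the genotypes share no replicate numbers. The number of tumors, 3 in each genotype, limits the precision.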
